A study of Mus musculus with 9 samples.

Results

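The immediate early factors described here are 10 transcription regulators, Atf3, Jun, Junb, Fos, Fosb, Egr1, Klf2, Klf4, Klf6 and Ier2, of 45777 genes in the tables. They were taken by symbol, matched through the numeric gene identifier of each row, and all 10 passed the filter on low values, as did 13820 genes in all. Atf3 and Klf4 gave the set its name because their differences between HEK-EV and PBS stood at ranks 1 and 3 by unadjusted p among all genes tested, which was known from earlier results of these data. Both were thus chosen by their measured difference between HEK-EV and PBS, and for them that comparison is given as a description, without a test. The samples are bulk RNA sequencing libraries of CD11b+ cells, the myeloid fraction isolated from dissociated mouse liver 48 hours after an intraperitoneal overdose of acetaminophen (APAP), which injures hepatocytes and produces acute liver failure. Mice of all 3 groups received APAP. The PBS group received the saline vehicle, the HEK-EV group SIRP-EV, extracellular vesicles made by the human embryonic kidney line HEK, and the MSC-EV group SIRP-EV described in the labels as MSC derived. The vesicles were given intravenously 8 hours after APAP, and each group has 3 samples. Strain, sex, age and dose are not given in the sources used here, nor whether samples of a group came from separate animals, so p-values measure the spread between these samples.

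Immediate early genes are transcribed within minutes of a stimulus from factors already present in the cell, without new protein synthesis. Fos, Fosb, Jun and Junb encode leucine zipper proteins that pair to form the transcription factor AP-1, and Atf3 encodes a leucine zipper protein of the ATF/CREB family that restrains inflammatory genes in macrophages. Egr1, Klf2, Klf4 and Klf6 encode zinc finger factors. Klf2 and Klf4 are known in endothelial cells and in monocyte and macrophage biology, and the family as a whole is also known to respond to the dissociation of tissue into single cells.

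Levels are given in TPM, the share of transcripts scaled to 1000000 per sample. The tables hold coverage but no read counts, so no counting interval is attached to a value. Coverage divided by FPKM, a measure of relative depth, ran from 5.28 to 6.84 over the 9 samples. The lowest mean coverage of a member in any sample was 99.3 reads per base, for Klf4. Itgam, which encodes the sorted marker CD11b, was itself lower in MSC-EV, at 196 to 255 TPM, than in PBS (289 to 377) and HEK-EV (339 to 434), without overlap. Ptprc, the pan-leukocyte marker CD45, was at 418 to 428 TPM in MSC-EV, against 515 to 647 in PBS and 575 to 669 in HEK-EV. Sirpa, examined beside Itgam and Ptprc, was not lower, at 778 to 807 TPM in MSC-EV, 703 to 783 in PBS and 771 to 835 in HEK-EV. The part of the lower Itgam and Ptprc in the lower values of the members was not tested. Markers of endothelial cells, which the isolation should deplete, were present, with none of 10 at 0 and a sum of 134 to 463 TPM. Transcripts of pancreatic acinar cells, summed over 9 markers, reached 18.9 and 750 TPM in HEK-EV replicates 1 and 2 and 86.7 and 2120 in MSC-EV replicates 1 and 3, against 0.305 or less in the other 5 samples. The MSC-EV group also held lower sums of 6 monocyte markers (2414 to 3327 TPM, against 4175 to 7825 in PBS) and higher sums of 10 hepatocyte markers (709 to 829 TPM, against 425 to 508).

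All 10 members had a lower mean in the MSC-EV group than in the PBS group, and 7 of them fell past the threshold of the test, namely Atf3, Jun, Fos, Fosb, Klf2, Klf4 and Ier2 (3.25% of all genes tested fell, of 5.11% called). In counts here and below, fell and rose mean past that threshold. Without PBS replicate 2, PBS replicate 3 or MSC-EV replicate 1, only Klf4 passed. Over all genes, the leave-one-out fits called 5 to 1861 (706 as reported). The means of these 7 stood at 43.1% (Klf4) to 72.5% (Jun) of the PBS mean. With HEK-EV, none of the 8 members other than Atf3 and Klf4 passed against PBS, so the means are given as values. They stood at 64.3% of the PBS mean for Atf3, 65.9% for Klf4, 76.0% for Jun and 138% for Egr1, and at 78.6% to 107% for the other members. Between the vesicle sources, Fos, Egr1, Klf2, Klf4 and Ier2 fell past the threshold with MSC-EV (4.4% of all genes tested fell, of 5.91% called). None of these calls held without HEK-EV replicate 1, 2 or 3 or without MSC-EV replicate 1 or 2. Over all genes, the leave-one-out fits called 0 to 1369 in that comparison (817 as reported). Atf3 and Jun differed between the vesicle sources by -0.06 and -0.07 (log2).

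**Figure D1:**
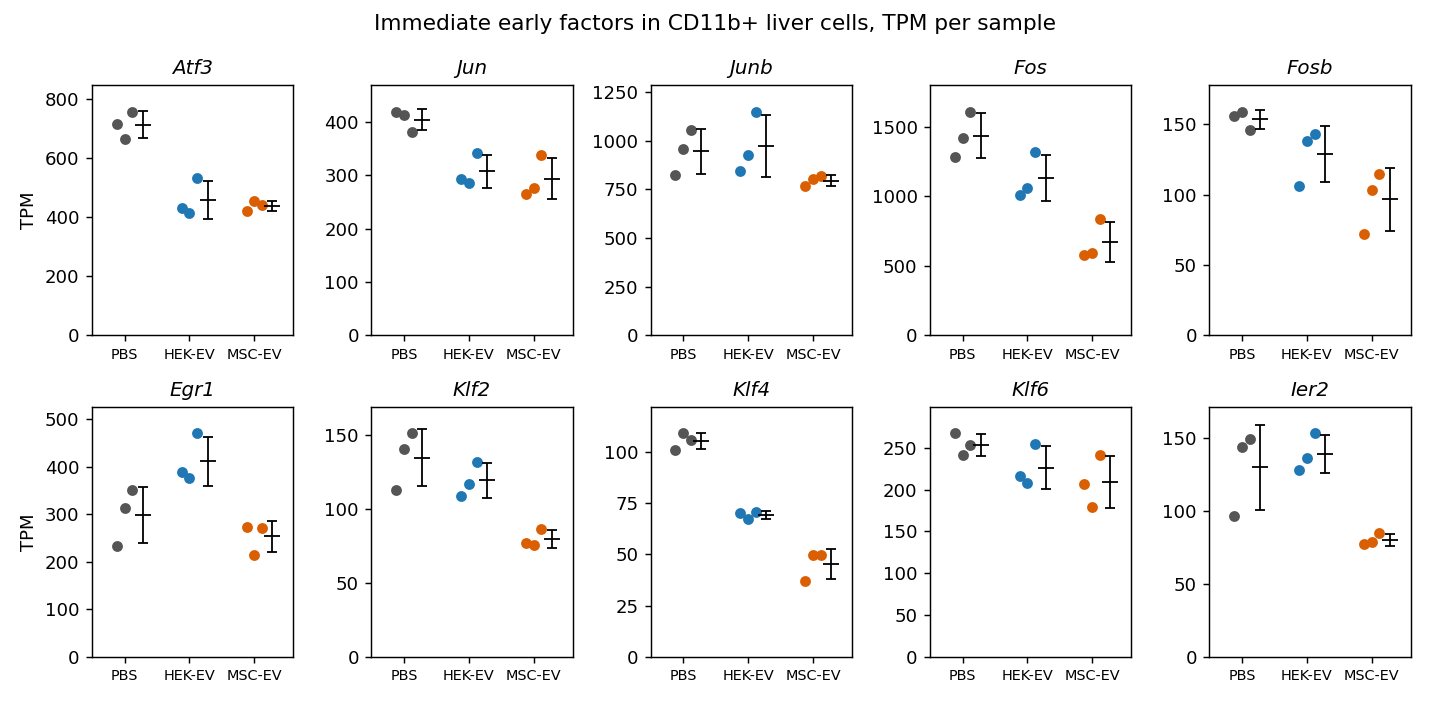
Each panel plots 1 member in TPM, with a point per sample and, beside the points, the group mean with its SD (n = 3); axes start at 0. Klf4 steps down from PBS (101 to 109 TPM) to HEK-EV (67.2 to 70.7) to MSC-EV (36.9 to 49.5), while Atf3 is low in both vesicle groups and Egr1 is highest in HEK-EV.

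Upstream sequences are shown because the cyclic AMP response element and its variants, the sites of ATF, CREB and AP-1 proteins, are a classical feature of this gene class. RefSeq promoters of GRCm38.p6 were at hand for 8 members, all but Egr1 and Ier2. In the 250 bases before the start site, the letters TGACG, read on both strands so that CGTCA counts, were found in 6 of the 8 (Atf3, Klf4, Fos, Fosb, Junb and Klf2) and in 17.8% of 32851 promoters. The variant TGACATCA was found in the other two, Jun and Klf6, and in 2.93% of promoters. Capitals mark these letters, and every sequence runs 5′ to 3′ on the strand of its gene. For 4 members, Atf3 and Klf4, which name the set, and the AP-1 pair Fos and Jun, the 250 bases up to the start site are printed (Atf3, chr1:191183334-191183583, minus strand; Klf4, chr4:55532476-55532725, minus; Fos, chr12:85473640-85473889, plus; Jun, chr4:95052223-95052472, minus), and for the others a window of 30 bases around the match (Junb, chr8:84978838-84978867, minus; Fosb, chr7:19310089-19310118, minus; Klf2, chr8:72318812-72318841, plus; Klf6, chr13:5861359-5861388, plus).
Atf3: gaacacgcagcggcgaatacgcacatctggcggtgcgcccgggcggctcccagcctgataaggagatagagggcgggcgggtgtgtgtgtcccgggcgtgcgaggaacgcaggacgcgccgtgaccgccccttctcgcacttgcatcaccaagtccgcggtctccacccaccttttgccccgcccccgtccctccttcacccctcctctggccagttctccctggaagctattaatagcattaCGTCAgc
Klf4: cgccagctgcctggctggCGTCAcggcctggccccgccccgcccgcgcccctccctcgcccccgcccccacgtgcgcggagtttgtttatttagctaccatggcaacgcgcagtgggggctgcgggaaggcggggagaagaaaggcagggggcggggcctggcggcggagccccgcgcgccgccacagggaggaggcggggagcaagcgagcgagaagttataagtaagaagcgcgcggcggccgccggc
Fos: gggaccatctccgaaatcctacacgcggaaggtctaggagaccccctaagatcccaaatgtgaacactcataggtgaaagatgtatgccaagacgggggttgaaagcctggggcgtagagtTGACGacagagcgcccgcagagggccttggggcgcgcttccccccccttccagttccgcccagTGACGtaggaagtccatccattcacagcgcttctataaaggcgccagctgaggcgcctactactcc
Jun: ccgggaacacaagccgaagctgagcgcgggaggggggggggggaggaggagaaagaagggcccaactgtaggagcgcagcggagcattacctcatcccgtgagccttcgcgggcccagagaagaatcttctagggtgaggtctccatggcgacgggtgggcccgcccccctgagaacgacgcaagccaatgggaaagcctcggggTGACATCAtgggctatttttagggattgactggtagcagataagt
Junb: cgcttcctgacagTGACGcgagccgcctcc
Fosb: atggagttgcgggTGACGcaagcgcggggg
Klf2: ctggtttgtTGACGccgtcgccatagggac
Klf6: ttggtgcgagcTGACATCAtcgtcgcgcag
The Fos window holds TGACG at 129 and 66 bases before the start site, and the Jun window holds TGACATCA 45 bases before it. In Atf3 the match lies 7 bases before the start and in Klf4 232 bases before it. The whole palindrome TGACGTCA (1.55% of promoters), the AP-1 letters TGANTCA (6.75%) and the CArG box of serum response factor (1.47%) matched in 0 of the 8 windows. The GC box GGGCGG matched in 7 of 8, all but Junb, against 32.7% of promoters, and the letters GCGNGGGCG of EGR factors in Klf2, Klf4 and Fosb, against 4.7%. In each of these 3 the EGR letters overlap a GC box. The RefSeq start used for Fosb lies inside the annotated gene. Bases farther upstream were not searched, so a motif without a match is absent only from these 250 bases. The letters searched were chosen with the sequences in view, and a match is a description of the sequence only.

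Klf4 (gene ID 16600, chromosome 4, 55527137 to 55532475) showed the most regular change. It was measured at 101, 109 and 106 TPM with PBS, at 70.0, 67.2 and 70.7 with HEK-EV, and at 36.9, 49.5 and 49.5 with MSC-EV. The 3 groups did not overlap, and every MSC-EV sample was below every HEK-EV sample. Group means were 105 ± 4.16, 69.3 ± 1.87 and 45.3 ± 7.25 TPM (SD, n = 3). Against PBS the MSC-EV group fell by 1.21 on the log2(TPM + 1) scale (SE 0.103, limma adjusted p = 0.00486, unadjusted rank 1 of 13820 genes). The PBS and HEK-EV samples brought Klf4 into the set, so neither this comparison nor that with HEK-EV is independent of that choice. Against HEK-EV it fell by 0.61 (SE 0.103, limma adjusted p = 0.0215), and HEK-EV stood 0.60 below PBS (SE 0.103). Its call against PBS held in 19 of 19 alternative fits. The call against HEK-EV was lost without HEK-EV replicate 1, 2 or 3 or MSC-EV replicate 1 or 2, with differences of -0.68 to -0.48 over the leave-one-out fits.

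Klf2 (gene ID 16598, chromosome 8, 72319062 to 72321654), a factor of quiescence in endothelial and immune cells, had its lowest values with MSC-EV. Its values were 113, 140.3 and 151 TPM with PBS, 109, 117 and 132 with HEK-EV, and 77.1, 75.3 and 86.4 with MSC-EV. The PBS and HEK-EV ranges overlapped, and the MSC-EV samples lay below both. It fell by 0.74 against PBS (SE 0.114, limma adjusted p = 0.0187) and by 0.58 against HEK-EV (SE 0.114, limma adjusted p = 0.0267), calls lost in 5 and 7 of 19 alternative fits, while HEK-EV against PBS gave -0.17 (95% interval -0.42 to 0.09, limma adjusted p = 0.999). Klf6 (gene ID 23849, chromosome 13, 5861489 to 5870393), a factor of myeloid activation and of wound repair, passed in none of the 3 comparisons. It was at 241 to 267 TPM in PBS, 208 to 255 in HEK-EV and 179 to 241 in MSC-EV, and the MSC-EV difference from PBS was -0.29 (95% interval -0.54 to -0.04, limma adjusted p = 0.161).

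Endothelial markers also had lower values in the MSC-EV group, though none passed the test. All 10 had a lower mean than in PBS (median -0.79 against 0.01 over all genes tested, 0 past the threshold), and their summed level was 134 to 263 TPM, against 317 to 395 in PBS. Their part in the lower Klf2 and Klf4 with MSC-EV was not tested. In HEK-EV replicates 1, 2 and 3 the same sum was 212, 348 and 463 TPM. Klf4 was at 70.0, 67.2 and 70.7 TPM there, and Klf2 at 109, 117 and 132. In MSC-EV replicates 1, 2 and 3 the sum was 188, 134 and 263 TPM. Klf4 was at 36.9, 49.5 and 49.5 TPM there, and Klf2 at 77.1, 75.3 and 86.4. In PBS replicates 1, 2 and 3 the sum was 395, 359.8 and 317 TPM. Klf4 was at 101, 109 and 106 TPM there, and Klf2 at 113, 140.3 and 151. Monocyte markers were lower in 6 of 6 with MSC-EV (median -1.17, with Vcan, Chil3 and Ly6c2 past the threshold, where 3.25% of all genes fell). Kupffer cell markers were lower in 7 of 7 (median -0.55, 0 past the threshold), with sums of 1472 to 2573 TPM against 2623 to 3164 in PBS. Biliary markers were higher in 5 of 5, with 3 past the threshold, Krt19 among them, where 1.86% of all genes rose. Lymphocyte markers were higher in the 4 of 9 that passed the filter (median 0.50, 1 past the threshold), and stellate cell markers in the 3 of 6 that did (median 0.78, 0 past it). The part of these cell types was not tested. In bulk samples, fewer cells of a type and less RNA per cell cannot be told apart.

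**Figure D2:**
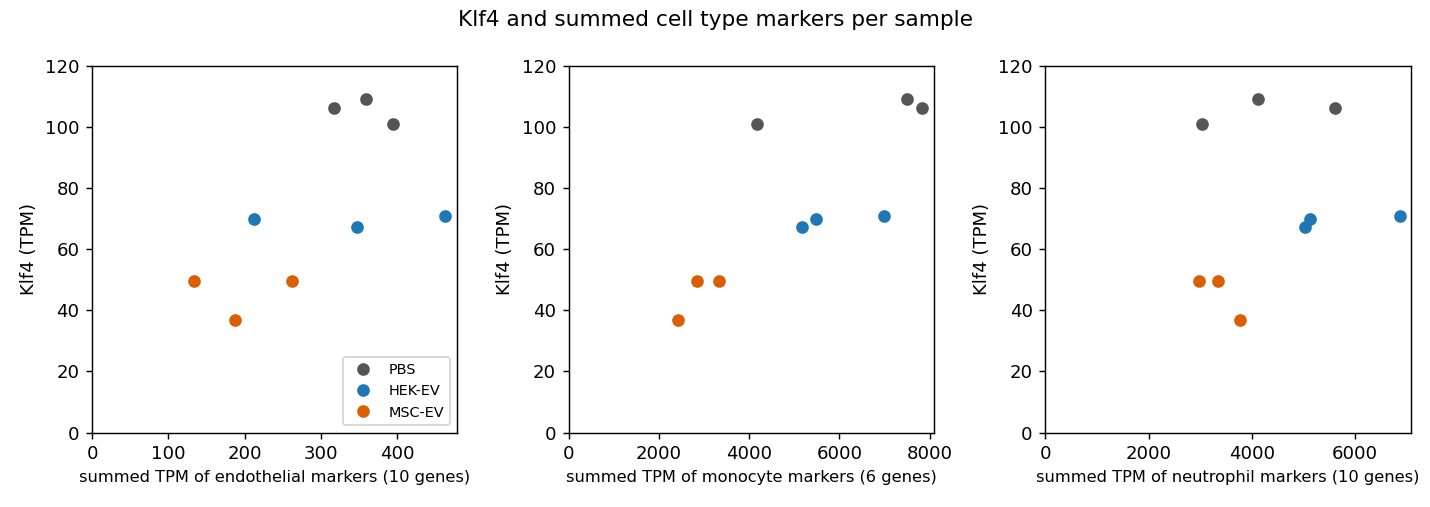
Klf4 in TPM (vertical axis) is plotted against the summed TPM of 10 endothelial, 6 monocyte and 10 neutrophil markers (horizontal axes), 1 point per sample, coloured by group. The HEK-EV points lie at 67.2 to 70.7 TPM of Klf4 and at endothelial sums of 212 to 463 TPM, and the MSC-EV points have the lowest Klf4 and, for endothelial and monocyte markers, mostly the lowest sums.

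Atf3 (gene ID 11910, chromosome 1, 191170296 to 191183333) was lower in both vesicle groups than in PBS. It was at 718, 667 and 758 TPM with PBS, 431, 413 and 533 with HEK-EV, and 420 to 454 with MSC-EV. Neither vesicle group overlapped PBS, and the MSC-EV values lay within the HEK-EV range. The HEK-EV mean was 64.3% of the PBS mean and stood 0.64 below it (SE 0.0951). The MSC-EV group fell by 0.70 (SE 0.0951, limma adjusted p = 0.0139), against the same PBS samples that brought Atf3 into the set, and its call was lost without PBS replicate 2 or 3 or MSC-EV replicate 1 (adjusted p up to 0.0628). MSC-EV against HEK-EV, a comparison that uses the HEK-EV samples of that choice, gave -0.06 with a 95% interval of -0.27 to 0.16 (limma adjusted p = 0.777).

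Jun (gene ID 16476, chromosome 4, 95049036 to 95052222), the core AP-1 subunit, had the pattern nearest to Atf3 of the other members. It was at 419.7, 413 and 382 TPM with PBS, 294, 286 and 343 with HEK-EV, and 266, 277 and 338 with MSC-EV. Both vesicle groups lay below PBS without overlap and overlapped each other. MSC-EV fell by 0.47 (SE 0.101, limma adjusted p = 0.0348), a call lost in 10 of 19 alternative fits, among them the replicate block (adjusted p = 0.0506, range 0.00161 to 0.16). HEK-EV against PBS, at -0.40 (SE 0.101), did not pass over all genes (limma adjusted p = 0.999), and MSC-EV against HEK-EV was -0.07 (95% interval -0.30 to 0.16).

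Fos (gene ID 14281, chromosome 12, 85473890 to 85477274), the partner of Jun in AP-1, was the most abundant member, with a mean of 1080.5 TPM over the 9 samples. Its values were 1284, 1421 and 1611 TPM in PBS, 1009.6, 1063 and 1322 in HEK-EV and 580.2, 593 and 839 in MSC-EV. The MSC-EV samples were below all others, and the HEK-EV and PBS ranges overlapped through HEK-EV replicate 3. Fos fell by 1.11 against PBS (SE 0.157, limma adjusted p = 0.0151) and by 0.76 against HEK-EV (SE 0.157, limma adjusted p = 0.0292). HEK-EV against PBS gave -0.35 (95% interval -0.70 to 0, limma adjusted p = 0.999). The call against PBS was lost without PBS replicate 2 or 3 or MSC-EV replicate 1 or 2. Fosb (gene ID 14282, chromosome 7, 19302696 to 19310118), a related subunit, was at 146 to 159 TPM in PBS, 106 to 143 in HEK-EV and 71.9 to 115 in MSC-EV, and fell with MSC-EV against PBS (by 0.69, SE 0.166, limma adjusted p = 0.0481), a call that was lost in 12 of 19 alternative fits, FPKM among them (adjusted p = 0.0577, range 0.00285 to 0.218).

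Junb (gene ID 16477, chromosome 8, 84976909 to 84978748), an AP-1 subunit that can restrain Jun, did not pass in any of the 3 comparisons. It was at 822 to 1056 TPM in PBS, 843 to 1149 in HEK-EV and 765 to 816 in MSC-EV, with -0.24 for MSC-EV against PBS (95% interval -0.51 to 0.03, limma adjusted p = 0.27). All MSC-EV values lay below those of PBS, by a margin smaller than the spread of the PBS group.

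Egr1 (gene ID 13653, chromosome 18, 34861207 to 34864956), a zinc finger factor of growth and inflammatory signals, was the only member whose HEK-EV samples all lay above the PBS samples. It was at 234, 312 and 350.3 TPM with PBS, 388, 376 and 469.7 with HEK-EV, and 273, 215 and 272 with MSC-EV. HEK-EV against PBS gave 0.47 (SE 0.156), which did not pass over all genes (limma adjusted p = 0.999). MSC-EV against PBS, with overlapping values, gave -0.23 (95% interval -0.58 to 0.12). Between the vesicle groups the MSC-EV samples were all lower, by 0.70 (SE 0.156, limma adjusted p = 0.0352), a call lost in 11 of 19 alternative fits (adjusted p up to 0.115). The sum of 10 neutrophil markers, carried mostly by S100a8 and S100a9, was 5035 to 6883 TPM in HEK-EV, 2971 to 3777 in MSC-EV and 3036 to 5617 in PBS. Its members did not move as 1 group. In MSC-EV against HEK-EV 7 were lower, with Csf3r past the threshold, and 3 were higher, with Ltf, a granule protein gene, past it (1.20, limma adjusted p = 0.0205). Over all genes tested in that comparison, 4.4% fell and 1.51% rose past the threshold. The part of neutrophils in the Egr1 values was not tested.

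Ier2 (gene ID 15936, chromosome 8, 84661331 to 84662852), an immediate early nuclear protein, was at 96.5, 144 and 149 TPM in PBS, 128 to 153 in HEK-EV and at most 85.1 in MSC-EV. PBS replicate 1 stood apart from the other PBS samples but above each MSC-EV sample. Ier2 fell by 0.66 against PBS (SE 0.148, limma adjusted p = 0.0388), a call lost in 11 of 19 alternative fits (adjusted p up to 0.168). Against HEK-EV it fell by 0.78 (SE 0.148, limma adjusted p = 0.0251), a call lost in 6 of 19.

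**Figure D3:**
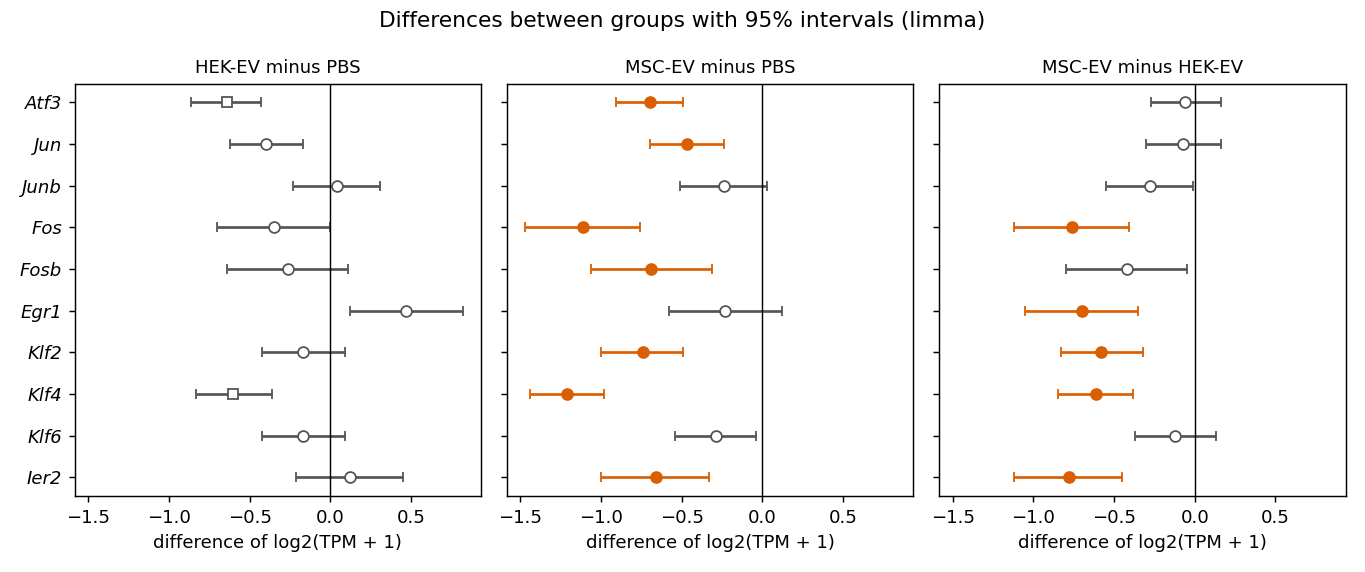
Differences of log2(TPM + 1) between groups are shown for each member with 95% intervals from limma. Filled points passed an adjusted p of 0.05, open circles did not, and the open squares (Atf3 and Klf4 in HEK-EV minus PBS) were not tested because those values chose them. The values for MSC-EV minus PBS are all below 0, from -1.21 for Klf4 to -0.23 for Egr1.

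Counts of members were set beside the same counts over all genes tested. In MSC-EV against PBS, 7 of 10 members fell past the threshold and 0 rose, where 5.11% of all genes tested passed, 3.25% lower and 1.86% higher. In 8 of 10 the MSC-EV values lay below the PBS values without overlap, where 14.9% of all genes did. The median difference of the members was -0.68, against 0.01 over all genes. Without Atf3 and Klf4, which entered the set through the same PBS samples, 5 of 8 fell past the threshold, 6 of 8 did not overlap, and the median was -0.57. In MSC-EV against HEK-EV, 5 of 10 members fell past the threshold and 0 rose, where 5.91% of all genes passed, 4.4% lower and 1.51% higher. Their median was -0.50 against -0.02. Without Atf3 and Klf4, 4 of 8 fell past the threshold and the median was also -0.50. The split of all genes called depended on the scaling, with 36.4% higher against PBS (63.1% on FPKM, 45.6% with median-of-ratios scaling) and 25.6% higher against HEK-EV (59.5% and 43.9%). With HEK-EV set against PBS, limma called 0 of the 8 members other than Atf3 and Klf4, and 0% of all genes. Among these 8, an unadjusted p under 0.05 was reached by Jun and Egr1 (3.58% of all genes, 495 of 13820). Jun and Fosb lay below PBS without overlap (2.29% of all genes), as did the chosen pair, and Egr1 lay above (5.51%). Atf3 and Klf4 were chosen by this comparison and the other members with its results known, so nothing is read from these counts. All members were chosen with earlier results of these data known. The counts for MSC-EV, with or without Atf3 and Klf4, are thus a description and not an independent test of the set. Both vesicle groups were compared with the same PBS samples.

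The number of members called changed when single libraries were left out, as did the number over all genes tested. Over the leave-one-out fits, 5 to 1861 genes were called against PBS (706 as reported) and 0 to 1369 against HEK-EV (817 as reported). Of 19 alternative fits, Fos lost its call in 5 against PBS and in 7 against HEK-EV, and Atf3 in 4 against PBS. Against PBS, only Klf4 passed without PBS replicate 2, PBS replicate 3 or MSC-EV replicate 1, Atf3 and Klf4 passed without MSC-EV replicate 2, and 4 members (Atf3, Fos, Klf2 and Klf4) without HEK-EV replicate 2. With a term for the samples that held acinar transcripts, Klf4 alone of the members passed, and 21 genes in all. The differences from PBS were then -1.08 for Fos and -0.56 for Atf3. That term covers HEK-EV replicates 1 and 2, MSC-EV replicates 1 and 3 and no PBS sample. It therefore cannot be fully told apart from treatment against PBS. Against HEK-EV, 0 members passed by limma without HEK-EV replicate 1, 2 or 3 or without MSC-EV replicate 1 or 2. Over all of these fits Fos stayed at -0.65 or lower against HEK-EV and at -1.02 or lower against PBS.

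Within a group the members tended to stand high or low in the same library. HEK-EV replicate 3 was the highest of its group in 10 of 10 members, MSC-EV replicate 3 in 8 of 10 and PBS replicate 3 in 6 of 10. MSC-EV replicate 1 was the lowest of its group in 7 of 10, PBS replicate 1 in 6 of 10 (Junb, Fos, Egr1, Klf2, Klf4 and Ier2), and HEK-EV replicates 1 and 2 in 5 each. Nothing in the labels ties samples of the same number together. HEK-EV replicate 3 also held the highest sums of endothelial, Kupffer cell and neutrophil markers of any sample (463, 3712 and 6883 TPM). PBS replicate 1 held the lowest monocyte and neutrophil sums of its group (4175 and 3036 TPM). It also held the highest endothelial and Kupffer cell sums of that group (395 and 3164 TPM). PBS replicate 3 held the lowest endothelial and Kupffer cell sums (317 and 2623 TPM) and the highest monocyte and neutrophil sums (7825 and 5617). MSC-EV replicate 3 held the lowest neutrophil sum of its group (2971 TPM). Its endothelial, Kupffer cell and monocyte sums were the highest there (263, 2573 and 3327 TPM). The part of these cell types in the order of the libraries was not tested.

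A list of 23 other immediate early genes was examined beside the members, and 22 passed the filter. In MSC-EV against PBS 14 of them were lower and 8 higher, and the median was -0.27 against 0.01 over all genes. Past the threshold, 6 fell and 2 rose, where 3.25% of all genes tested fell and 1.86% rose. Ier5 (-0.75, limma adjusted p = 0.0151), Jund, an AP-1 subunit (-0.61, limma adjusted p = 0.0213), Nr4a1, an orphan nuclear receptor (-0.79, limma adjusted p = 0.026), Nr4a2, Dusp2 and Zfp36 fell. Nr4a3, a close relative of Nr4a1, went the other way. It was at 16.1, 11.4 and 13.7 TPM in PBS, 11.9, 19.7 and 18.9 in HEK-EV and 36.0, 33.1 and 26.9 in MSC-EV, a rise of 1.16 against PBS (SE 0.193, limma adjusted p = 0.0218) and of 0.91 against HEK-EV (limma adjusted p = 0.0311). Gadd45b, a stress-response gene, rose by 0.49 (limma adjusted p = 0.0386). In HEK-EV against PBS limma called 0 of the 22, and 10 were higher and 12 lower. Only Ier5 passed against PBS without MSC-EV replicate 2, and 0 of the 22 by limma without PBS replicate 2 or 3, without MSC-EV replicate 1 or with the acinar term. Gadd45b passed in 6 of 19 alternative fits and was lost on FPKM, with median-of-ratios scaling and without the filter, among others. Over all genes, the leave-one-out fits called 5 to 1861 against PBS and 0 to 1369 against HEK-EV. Against HEK-EV, 3 of the list fell and 1 rose past the threshold (4.4% and 1.51% of all genes). By limma 0 passed without HEK-EV replicate 1, 2 or 3, without MSC-EV replicate 1 or 2 or without the filter, Nr4a3 alone passed on FPKM, Nr4a1 and Nr4a3 passed with median-of-ratios scaling, and with the replicate block 5 fell and 0 rose, so that Nr4a3 was lost.

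**Figure D4:**
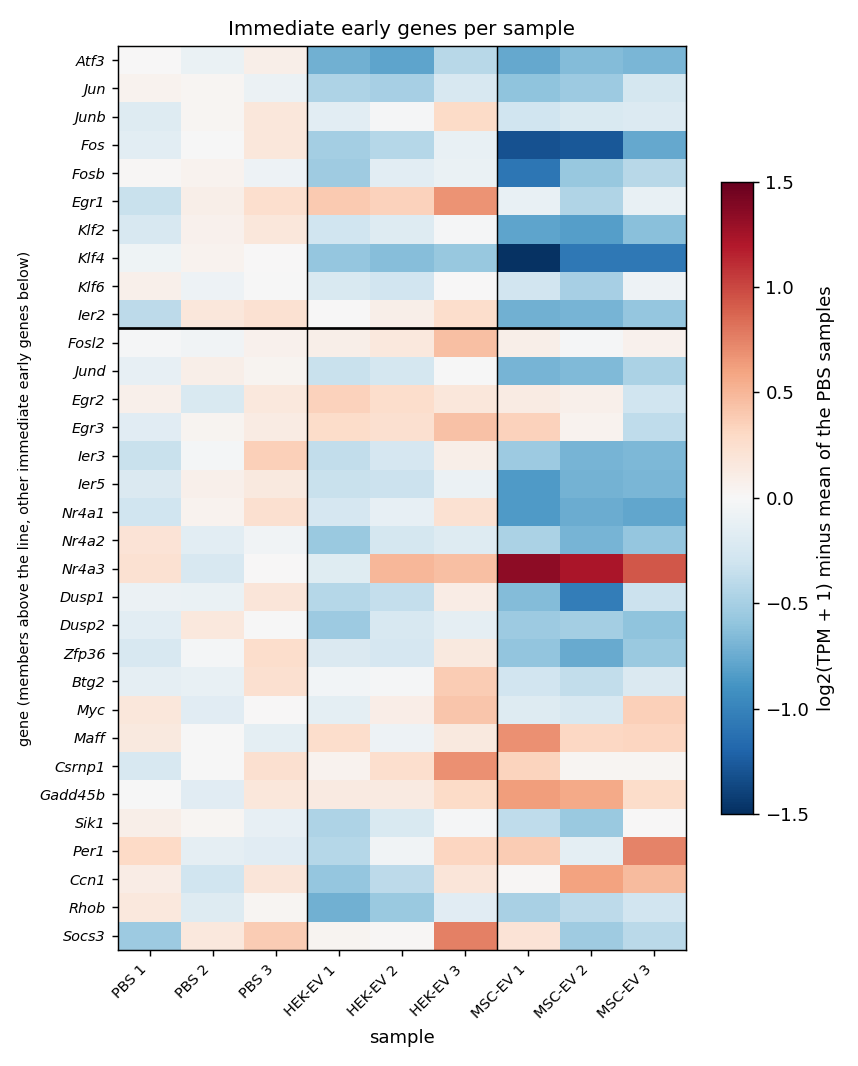
Colour gives log2(TPM + 1) of each gene in each sample minus the mean of the 3 PBS samples, with the 10 members above the line and 22 other immediate early genes below it. The MSC-EV columns are mostly blue for the members, while the Nr4a3 row is red there (a difference of 1.16 from PBS in the fit).

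Of 21 genes encoding serum response factor, its partners, CREB proteins and MAP kinases, 12 were lower and 9 higher with MSC-EV than with PBS. Past the threshold, 3 fell and 0 rose, where 3.25% of all genes tested fell and 1.86% rose. These were Elk3, an ETS partner of serum response factor (-0.31, limma adjusted p = 0.0481), Map2k1 (-0.33, limma adjusted p = 0.0273) and Mapk14, which encodes the p38 kinase (-0.25, limma adjusted p = 0.035). All 3 overlap other annotated genes, which leaves their values uncertain. Nab1, a co-repressor of EGR factors, fell by 0.27 (limma adjusted p = 0.0265), and Nab2 did not pass. Of the other 14 KLF genes 8 passed the filter, and Klf13 alone among them fell against both PBS (-0.39, limma adjusted p = 0.0182) and HEK-EV (-0.43, limma adjusted p = 0.0205). Klf13 overlaps other annotated genes. In MSC-EV against HEK-EV, 4.4% of all genes tested fell past the threshold. Heat shock genes, another class known to respond to tissue handling, had 0 of 12 past the threshold by limma in each comparison, with 12 of 12 lower in MSC-EV than in PBS (median -0.17) and 11 of 12 lower in HEK-EV (median -0.09). Hspa1a was at 606, 480.2 and 293 TPM in PBS, 233 to 341 in HEK-EV and 295 to 383 in MSC-EV, and it has a near-identical copy, Hspa1b, with which reads may be shared.

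The genes whose pattern over the 9 samples was most like that of Atf3 were found by the root mean square difference between centred log2(TPM + 1) values, which is 0 for an identical pattern. With members and predicted, Riken and accession-named genes left out, they were Mkln1 (0.16), Rhob (0.16), Ccl4 (0.168), Ccl3 (0.17) and Snhg8 (0.176). Jun among the members stood at 0.158. Rhob, also in the list of other immediate early genes, averaged 204 TPM in PBS, 147 in HEK-EV and 156 in MSC-EV. Ccl3, a macrophage chemokine, averaged 992 TPM in PBS, 761 in HEK-EV and 730.3 in MSC-EV, and it overlaps Ccl4 in the annotation. The genes nearest to Klf4 were Hes1 (0.207), Camkk2 (0.216), Agpat4 (0.223), Nxpe4 (0.226) and Ier5 (0.228), and Fos, at 0.195, was nearer than any of them. Hes1, a repressor downstream of Notch, averaged 34.7, 31.4 and 18.7 TPM in PBS, HEK-EV and MSC-EV. Snhg8, Camkk2, Agpat4 and Nxpe4 overlap other annotated genes.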

How the data were processed

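RNA of CD11b+ liver cells was sequenced from libraries made with a stranded mRNA kit, per the labels' protocols. HISAT2 2.1.0, StringTie and the build mm10 are named in the submitters' processing notes; the strand setting is not given in the sources used here. The authors deposited 1 table per sample with coverage (a read signal per base), FPKM and TPM, and TPM sums to 1000000 in each sample, per the file headers and values. Gene identifiers were matched to RefSeq symbols of GRCm38.p6 (45679 of 45777), and the positions of all 10 members equal those of that assembly. No member overlaps another annotated gene.

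Rows were summed per gene. A gene was tested if 3 or more of the 9 samples reached 1 TPM. The test on log2(TPM + 1) was limma's moderated fit with a trend (limma 3.58.1, R 4.3.3, all samples together, two-sided, Benjamini-Hochberg over 13820 genes, threshold 0.05). An exact permutation test of 3 against 3 cannot go below p = 0.1 and was not used. The members and lists were chosen with earlier results of these data known. All members are described. Up to 3 genes per other list of smallest p with at least 5 TPM in a group are named. The 5 genes most like Atf3 and Klf4 with at least 10 TPM are named too. Members and predicted, Riken and accession-named genes were left out of that search. Nr4a1, Nr4a2, Dusp2, Zfp36 and Gadd45b were named after their values were seen. Each of these was tried in turn as an alternative: FPKM, median-of-ratios scaling, 0.1 as pseudocount, a 5 TPM minimum, all genes kept, the 6 samples compared, array weights, a replicate block, depth as a covariate, each sample left out, and an acinar term. Python 3.11.15 with numpy 2.4.6, pandas 2.3.3 and matplotlib 3.10.9 was used for the rest.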

Additional observations from a re-analysis of the deposited data

How the results depend on the processing

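Klf4 against PBS kept its direction and its call in all 19 alternatives run (-1.34 to -1.07, adjusted p 0.000572 to 0.0339). For MSC-EV against PBS, where 7 members and 706 genes were called, no filter gave 4 members and 361 genes, the 6 samples compared 4 and 77, array weights 8 and 4163, depth as a covariate 5 and 1447, and the acinar term 1 and 21. For MSC-EV against HEK-EV, where 5 members and 817 genes were called, no filter gave 1 and 387, FPKM 2 and 459, median-of-ratios scaling 4 and 501, array weights 6 and 2081, and depth 5 and 1516. For HEK-EV against PBS no filter gave 4 genes, where the reported fit gave 0. Leaving out each sample in turn gave 1 to 7 members and 5 to 1861 genes for MSC-EV against PBS, 0 to 5 and 0 to 1369 for MSC-EV against HEK-EV, and 0 to 1 and 0 to 2 for HEK-EV against PBS, where the 1 is Atf3 or Klf4, chosen by that comparison and not read as a test. The cause was not tested; fewer samples or more genes tested enter some of these fits. No member called changed sign in any of these fits.

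With the replicate block 404 genes and 6 members passed in MSC-EV against PBS and 448 genes and 5 members in MSC-EV against HEK-EV. Over all genes tested, same-numbered samples did not deviate together (0 of 9 pairs with a correlation over 0.1, and 3 of 18 best matches with the own number), so the numbers were not taken to pair samples.

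Differences that changed sign were all from values that did not pass. HEK-EV against PBS turned to -0.01 and -0.10 for Junb with array weights and with depth, and to -0.06 and -0.09 without PBS replicate 1 and HEK-EV replicate 3. For Ier2 it turned to -0.03 with array weights, -0.14 with depth and -0.08 without PBS replicate 1. MSC-EV against HEK-EV turned to 0.01 for Atf3 on FPKM, and to 0.06 for Atf3 and 0.01 for Jun without HEK-EV replicate 3. Over the fits that leave out 1 sample, HEK-EV against PBS ran from -0.09 to 0.14 for Junb and from -0.08 to 0.23 for Ier2, and MSC-EV against HEK-EV from -0.13 to 0.06 for Atf3 and from -0.18 to 0.01 for Jun. The planned acinar term could not be fitted, because Cela1 put every sample over 10 TPM. A term without Cela1, which covers no PBS sample, was added after the data were seen. The tables hold no counts, which limits statements on precision.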

Other observations

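Atf3 is a known target of the ATF4 stress response, and the genes of that response were examined as a list. Of 12, 11 passed the filter, 4 were higher and 7 lower in MSC-EV than in PBS (median -0.01), and limma called 0 in that comparison and 0 in HEK-EV against PBS. In MSC-EV against HEK-EV limma called 1 of the 11, Sesn2, a stress-induced regulator of growth signalling (-0.32, adjusted p = 0.0494), where 4.4% of all genes tested fell. Atf4 itself was at 189.7 to 193 TPM in PBS, 166 to 207 in HEK-EV and 189 to 191 in MSC-EV. Slc7a11, the cystine transporter, averaged 3.81 TPM in PBS, 5.87 in HEK-EV and 7.93 in MSC-EV (limma adjusted p = 0.052 for MSC-EV against PBS). Among 5 other partners of AP-1 (Jdp2, Batf, Batf3, Atf2 and Atf7), limma called 0 in each comparison.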
